A study of Sus scrofa with 95 samples.

Results

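Genes that mark fat cells were followed through samples of 5 organs of young pigs, and their levels were compared between the arms of a heart surgery model. The 8 genes were chosen by symbol: ADIPOQ, LEP, PLIN1, PLIN4, CIDEC, CIDEA, LIPE and FABP4. All 8 were found among the 35670 genes of the table. Fat cells store triglyceride in a single large droplet, release it as fatty acids when stimulated, and secrete hormones into the blood. Adipose tissue lies around the kidney and along the mesentery at the gut wall, next to the tissues sampled here, and under the epicardium of the heart. Liver and heart muscle also hold small lipid droplets in their own cells, and some of the 8 genes are active there.

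Infant swine of 5 to 10 kg were used. In the linrodostat arm, 4 animals underwent cardiopulmonary bypass (CPB, in which a machine takes over the work of heart and lungs) with deep hypothermic circulatory arrest for 75 min and were given 75 mg of linrodostat, an inhibitor of the tryptophan-degrading enzyme IDO1. In the CPB arm, 7 animals had the same bypass and 75 min of arrest without drug. The control arm held 8 animals with anesthesia and neither bypass nor drug. The linrodostat arm held 2 females and 2 males, the CPB arm 3 and 4, and the control arm 4 and 4, per the labels. Each animal gave 1 library of polyadenylated RNA from kidney cortex, terminal ileum, left ventricle of the heart, liver and right lower lobe of the lung, 95 in all. Kidney and ileum were taken before euthanasia and the other organs after it, per the labels, and whether surrounding fat was trimmed is not given in the sources used here.

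Library totals lay between 20 and 53.6, with a median of 35.1, in units of 1e+06 counts. All heart libraries carry batch label 2 and all others batch label 1, so differences between heart and the other organs cannot be told apart from batch. Levels are counts per 1e+06 counts (CPM) scaled within the organ, and they are compared between libraries for 1 gene, never between genes, since gene length was not taken into account. In a piece of tissue, fewer cells of a type and less RNA per cell cannot be told apart. Log2 fold changes stand with ± 1 standard error. A gene passed when its edgeR quasi-likelihood p, adjusted by Benjamini-Hochberg over all genes tested in the organ, was under 0.05.

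On the Sscrofa11.1 assembly, RefSeq places ADIPOQ (ENSSSCG00000039103) on chromosome 13 from 124633906 to 124646237 and LEP (ENSSSCG00000040464) on chromosome 18 from 20106867 to 20124071. PLIN1 (ENSSSCG00000001844) lies on chromosome 7 from 55237517 to 55250797, and PLIN4 (ENSSSCG00000013512) on chromosome 2 from 74318624 to 74331920. CIDEC (ENSSSCG00000011557) lies on chromosome 13 from 66141836 to 66149801, and CIDEA (ENSSSCG00000060225) on chromosome 6 from 97253074 to 97268355. LIPE (ENSSSCG00000003018) lies on chromosome 6 from 49543671 to 49560126, and FABP4 (ENSSSCG00000040681) on chromosome 4 from 55096400 to 55101209. The 8 genes thus sit on 6 chromosomes.

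ADIPOQ encodes adiponectin, a hormone made almost only by fat cells. It was abundant in a few libraries and near 0 in the others. At least 10 CPM were reached in 10 of 95 libraries, a limit chosen after the values were seen. These were 3 control kidneys and 7 ilea, of which 1 came from the linrodostat arm, 4 from the CPB arm and 2 from the control arm. In 27 libraries ADIPOQ had 0 counts.

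In kidney, the linrodostat libraries had 0, 0, 0.052 and 0.0956 CPM of ADIPOQ (animals 12, 18, 20 and 24). All 7 CPB kidneys had 0 counts, which allows a level of up to 0.0134 CPM over the group (3 counts, counting error only). The control kidneys had 57.5 CPM in animal 1, 0.0255 in animal 4, 0 in animal 7, 13 in animal 10, 0.0611 in animal 13, 0.0467 in animal 14, 0.54 in animal 15 and 117 in animal 26. The high kidneys were all controls, and the other 5 controls were within 0.54 CPM of 0. Animals 1, 10 and 26 are males, and leaving them out leaves animal 7 as the only male control. The count test gave an edgeR adjusted p = 0.017 for CPB against control. ADIPOQ entered that test through 4 control kidneys alone, since no kidney of the other arms reached the filter's 0.285 CPM, so it could pass only as lower and the p adds little to the values. No fold change is given, because a fit against a group with 0 counts sets no bound. An exact 2-sided permutation test of mean log2(CPM + 0.1) gave a difference of −3.83 between CPB and control kidneys, with p = 0.0269 and an adjusted p = 0.134 over the 5 organs. In that test p counts the splits with an absolute difference at least as large, and the smallest p it allows is 0.000155. Doubling the smaller tail of the same exact test, a form added after the data were seen, gave p = 0.00249 and an adjusted p = 0.0124, so the call depends on that convention. By absolute difference it also passed in the 8 fits that left out 1 control, and in none that left out 1 CPB animal. With 1 control left out the groups are of equal size, and both forms of p are then the same. Limma-voom gave an adjusted p of 0.185.

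**Figure D1:**
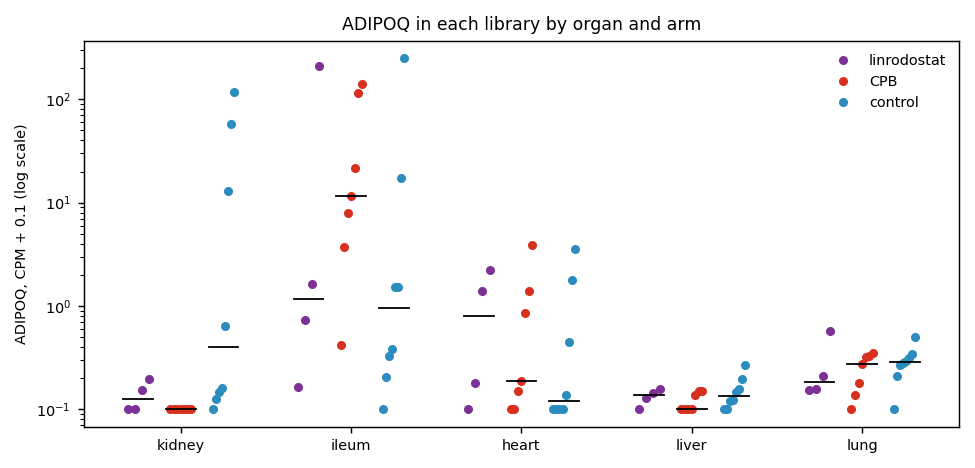
ADIPOQ level in each of the 95 libraries, as CPM + 0.1 on a log axis, by organ (horizontal axis) and by arm (colour: linrodostat, CPB and control from left to right). Each point is 1 animal and the black bar is the group median. High values stand in control kidneys and in ilea of every arm, and the 7 CPB kidneys lie at 0.

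In ileum, ADIPOQ reached high levels in every arm. The linrodostat ilea had 210, 1.53, 0.624 and 0.0624 CPM (animals 12, 18, 20 and 24). The CPB ilea ran from 0.319 to 141 CPM with a median of 11.6, and the control ilea from 0 to 250 CPM with a median of 0.849. The groups overlapped over almost their whole range. The difference in mean log2(CPM + 0.1) was 3.08 (CPB minus control), with an exact permutation p = 0.103 and an adjusted p = 0.257.

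Kidneys and ilea with high ADIPOQ came from different animals. Control animals 1, 10 and 26, whose kidneys were high, had 0.103, 0 and 0.23 CPM in the ileum. Control animal 13, with 250 CPM in the ileum, had 0.0611 CPM in the kidney. Over the 19 animals, with arm means removed, the log2 levels in kidney and ileum had r = −0.409 (permutation p = 0.0801, adjusted p = 0.4 over 10 organ pairs) and rho = −0.589 (permutation p = 0.00909, adjusted p = 0.0909). Without the 2 animals farthest from the median in kidney, r was −0.343. No pair of organs passed the threshold by r or rho.

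In heart, ADIPOQ stayed at 3.81 CPM or below, in lung at 0.478 or below and in liver at 0.171 or below. The exact permutation tests of CPB against control gave p = 0.674 in heart, p = 0.214 in liver and p = 0.455 in lung. In liver and lung ADIPOQ was too low to enter the count test. The hearts with more than 1 CPM were linrodostat animals 18 and 20 (1.31 and 2.14 CPM), CPB animals 9 and 11 (3.81 and 1.29 CPM) and control animals 1 and 26 (3.44 and 1.67 CPM).

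LEP encodes leptin, the hormone that reports fat stores to the brain. It failed the filter on low counts in every organ when each organ was fitted apart. In kidney it had 0 counts in all linrodostat and all CPB libraries, and in 5 of 8 control libraries. The other control kidneys had 0.383 CPM in animal 1, 0.219 in animal 10 and 2.28 in animal 26, and these are the 3 kidneys high in ADIPOQ. In ileum the highest level was 5.44 CPM in control animal 13, the ileum with the most ADIPOQ. It was 0.622 CPM or below in every other ileum, also in that of linrodostat animal 12, which had 0.137 CPM of LEP with 210 CPM of ADIPOQ.

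PLIN1 encodes perilipin 1, which coats the droplet of the fat cell and controls access of lipases to it. In kidney, the linrodostat libraries had 0.49, 0.164, 0.234 and 0.446 CPM (animals 12, 18, 20 and 24). The CPB kidneys ran from 0.0733 to 0.509 CPM, and the control kidneys from 0.49 to 28.8 CPM. Only CPB animal 2 (0.509 CPM) lay above the lowest control, animal 14.

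PLIN1 fell by 5.06 ± 0.97 on the log2 scale in CPB against control kidneys (edgeR adjusted p = 0.00162). The control kidneys of animals 1, 10 and 26 had 22.2, 5.95 and 28.8 CPM, and the other controls 0.49 to 1.97 CPM. Without these 3 controls, an alternative added after the data were seen, the log2 fold change was −2.15 with an edgeR adjusted p = 0.0139, where 13.7% of all genes passed. The controls left in that fit were picked by their low ADIPOQ, and the cause of the PLIN1 difference was not tested. With limma-voom on all libraries the log2 fold change was −3.76 and the adjusted p = 0.0539.

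PLIN1 also fell in liver, where ADIPOQ was near 0 in all 19 libraries. The linrodostat livers had 1.25, 1.49, 2.98 and 2.7 CPM (animals 12, 18, 20 and 24). The CPB livers ran from 1.74 to 4.1 CPM with a median of 2.33, and the control livers from 2.89 to 11 CPM with a median of 6.39. Of the CPB livers only those of animals 6 and 21 (3.46 and 4.1 CPM) lay above the lowest control. The log2 fold change was −1.39 ± 0.29 for CPB over control (edgeR adjusted p = 0.00208). That call held without any 1 animal, with adjusted p between 0.00101 and 0.00616. In ileum PLIN1 was highest in the 4 libraries with the most ADIPOQ, 45.2 CPM in linrodostat animal 12, 54.1 and 29.1 CPM in CPB animals 21 and 25, and 73.2 CPM in control animal 13.

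PLIN4, a droplet coat protein of fat cells that is also made in heart and skeletal muscle, was abundant in heart. There it had 202 to 260 CPM in linrodostat, 101 to 221 in CPB and 120 to 275 in control libraries. Scaled over all organs together, its control levels were 173 to 404 CPM in heart, above every control library of the other organs. In liver PLIN4 went the other way from PLIN1. It had 17.7, 9.42, 21.9 and 35.6 CPM in the linrodostat livers, 3.15 to 30.3 CPM (median 11.9) in the CPB livers and 3.75 to 9.55 CPM (median 5.71) in the control livers. The log2 fold change was 1.27 ± 0.38 for CPB over control (edgeR adjusted p = 0.0203), with the CPB livers spread from below the lowest control to above the highest. Without CPB animal 2 or without CPB animal 11 the call was lost, with adjusted p up to 0.0569 over all fits that left out 1 animal, and limma-voom gave 0.0918. It was also lost without a low-count filter (0.0526) and with log2 ADIPOQ as a covariate (0.0877). In liver ADIPOQ had 0 counts in 7 of 19 libraries, so that covariate rests on few counts and is no measure of fat there.

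In kidney PLIN4 had 3.68 to 12.7 CPM in the linrodostat arm, 6.74 to 24 CPM in the CPB arm and 6.67 to 44.5 CPM in the control arm. Of the controls, 6 lay at 28 CPM or above, higher than every kidney of the other arms. CPB over control was −0.91 ± 0.35 and missed the threshold (edgeR adjusted p = 0.0686), while DESeq2 gave an adjusted p = 0.0291. It passed by edgeR without control animal 15 (adjusted p = 0.0172) and without CPB animal 25 (adjusted p = 0.0472). PLIN4 fell by 1.91 ± 0.45 on the log2 scale in linrodostat against control kidneys (edgeR adjusted p = 0.00606).

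**Figure D2:**
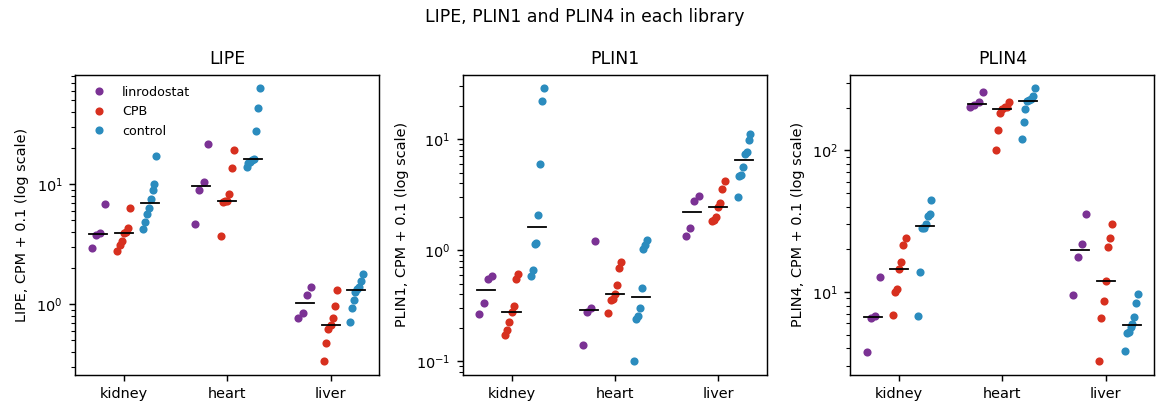
LIPE, PLIN1 and PLIN4 in each library of kidney, heart and liver, as CPM + 0.1 on a log axis. Points are animals, coloured by arm (linrodostat, CPB and control from left to right), and black bars are group medians. LIPE lies lower in CPB than in control libraries in all 3 organs, and in liver PLIN1 is lower while PLIN4 is higher.

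CIDEC and CIDEA encode proteins that fuse small droplets into larger ones, CIDEC in white fat and CIDEA, in mice, in brown fat. Neither passed in any organ in which it was tested. In kidney CIDEC had 0.718 to 1.66 CPM in linrodostat, 0.659 to 3.69 in CPB and 0.327 to 5.94 in control libraries. Its highest control values were 5.94 CPM in animal 26, 4.07 in animal 1 and 4.03 in animal 13, the last with 0.0611 CPM of ADIPOQ. The CPB over control log2 fold change was −0.41 ± 0.50 in kidney (edgeR adjusted p = 0.594).

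CIDEC was highest in lung, where ADIPOQ was near 0. It had 8.97 to 23.1 CPM in linrodostat, 7.77 to 34.1 in CPB and 15.1 to 30.2 in control lungs. CIDEA in kidney had 2.61, 6.42, 15.1 and 15.9 CPM in the linrodostat arm, 1.23 to 12.4 CPM in the CPB arm and 2.4 to 17.8 CPM in the control arm. A kidney level of 15.9 CPM occurred with 57.5 CPM of ADIPOQ (control animal 1) and also with 0.0956 CPM (linrodostat animal 24). The CPB over control difference was −0.99 ± 0.55 (edgeR adjusted p = 0.209).

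LIPE encodes hormone-sensitive lipase, which splits diglycerides in fat cells and is also used for steroid and muscle lipids. It was lower after CPB in 3 organs. In kidney it had 3.85, 2.82, 6.69 and 3.7 CPM in the linrodostat arm, 2.66 to 6.22 CPM (median 3.85) in the CPB arm and 4.13 to 16.9 CPM (median 6.84) in the control arm. LIPE fell by 1.04 ± 0.28 on the log2 scale in CPB against control kidneys (edgeR adjusted p = 0.0144). Without control animals 1, 10 and 26 the change was −0.73 with an adjusted p = 0.0655, and with log2 ADIPOQ as a covariate −0.56 with an adjusted p = 0.202, both added after the data were seen. The kidney call for LIPE was lost in both. All 7 CPB kidneys had 0 counts of ADIPOQ, so the covariate partly follows the arm and can take up part of any CPB effect. Without the 3 controls 13.7% of all genes passed, against 21.1% with all kidneys. Neither loss therefore points to a cause, which was not tested.

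In heart, where ADIPOQ did not differ detectably, LIPE had 8.79, 21.3, 10.3 and 4.54 CPM in the linrodostat arm. The CPB hearts ran from 3.59 to 19.1 CPM with a median of 7.17, and the control hearts from 13.7 to 62.8 CPM with a median of 15.9. Of the CPB hearts only that of animal 9 (19.1 CPM) lay above the lowest control. LIPE fell by 1.48 ± 0.42 on the log2 scale (edgeR adjusted p = 0.0266), and with log2 ADIPOQ as a covariate the change was −1.58 (adjusted p = 0.02). Leaving out control animal 7 or CPB animal 2, 11, 19 or 25 ended the call, with adjusted p up to 0.0586, and all fits without 1 animal gave log2 fold changes between −1.75 and −1.15. Without a low-count filter the adjusted p was 0.0687.

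In liver LIPE had 0.661 to 1.28 CPM in the linrodostat arm, 0.236 to 1.22 CPM (median 0.572) in the CPB arm and 0.609 to 1.68 CPM (median 1.21) in the control arm. It fell by 0.85 ± 0.31 on the log2 scale in CPB against control livers (edgeR adjusted p = 0.0458). The call ended in 11 of 15 fits that left out 1 animal, where adjusted p reached 0.0955. It also ended without a low-count filter (0.0817), with sex as covariate (0.0506), with only the 2 arms fitted (0.0565) and with log2 ADIPOQ as covariate (0.0698). The last rests on few counts in liver and is no measure of fat there. In lung LIPE varied little, with 10.1 to 14.8 CPM in linrodostat, 9.08 to 15.6 in CPB and 10.4 to 14.7 in control libraries.

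FABP4 encodes the fatty acid carrier of fat cells, which is also made by capillary endothelium and macrophages. In kidney it had 21, 16.1, 8.79 and 12 CPM in the linrodostat arm and 7.68 to 16 CPM in the CPB arm. The control kidneys had 24.9, 11.8 and 39.4 CPM in animals 1, 10 and 26, and 4.41, 6.41, 5.62, 0.7 and 2.33 CPM in animals 4, 7, 13, 14 and 15. The controls thus fell on either side of the CPB kidneys, and the difference was −0.07 ± 0.56 (edgeR adjusted p = 0.943).

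The 3 controls high in ADIPOQ were also the 3 controls highest in FABP4. Without them the remaining controls, at 6.41 CPM or below, lay below all CPB kidneys, and in that setting 5.79% of all genes did not overlap. Leaving them out takes away the high FABP4 values of the control arm alone, so this separation follows in part from the choice of libraries and no test of it is given. The summed level of 11 endothelial genes in kidney was 627 to 1150 CPM in linrodostat, 653 to 976 in CPB and 662 to 1200 in control libraries. That of 9 macrophage genes was 147 to 342, 202 to 425 and 230 to 1660 CPM in the same arms, and the part of either in the FABP4 levels was not tested.

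**Figure D3:**
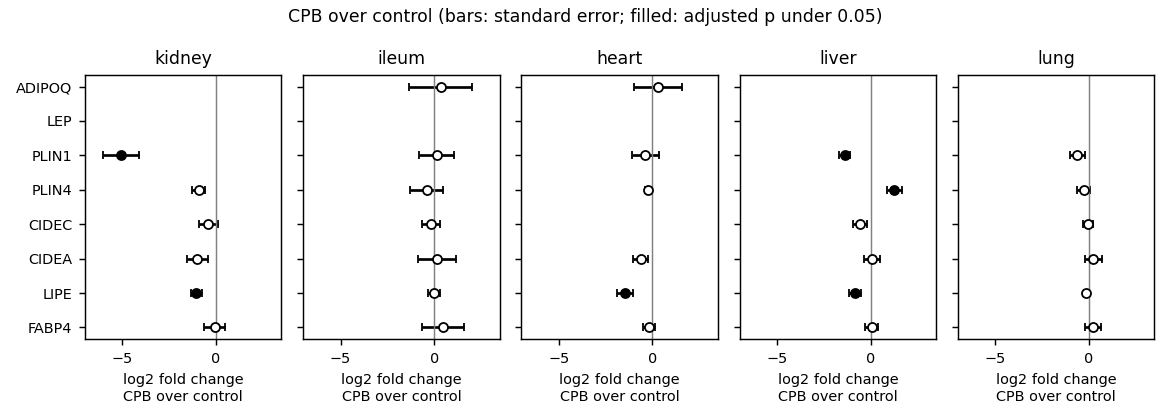
Log2 fold change of each tested gene in CPB over control (horizontal axis) in the 5 organs, with bars of 1 standard error. Filled points passed at an adjusted p under 0.05, genes without a point failed the low-count filter, and ADIPOQ in kidney is not drawn because all CPB libraries had 0 counts. PLIN1, PLIN4 and LIPE carry the filled points, and ileum and lung have none.

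By count, 3 of 7 tested genes passed in kidney between CPB and control, all lower, where 21.1% of all 17653 genes passed and 9.86% passed as lower. The 3 were ADIPOQ, PLIN1 and LIPE, and as ADIPOQ entered the test through control kidneys alone, neither this count nor the median supports a direction. The median log2 fold change was −0.99 over these 7 genes and −0.03 over all genes. In heart 1 of 6 passed, lower, where 11.9% of all genes passed and 5.53% passed as lower. In liver 3 of 6 passed, 2 lower and 1 higher, where 26.9% of all genes passed, 11.3% as lower and 15.6% as higher. The median was −0.26 over these 6 genes and −0.03 over all genes. In ileum 0 of 7 passed by edgeR, with 0 at an unadjusted p under 0.05 and 0 by DESeq2, where 0% of all genes passed. In lung 0 of 6 passed by edgeR, likewise with 0 at an unadjusted p under 0.05 and 0 by DESeq2, where 4.71% of all genes passed.

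An F test over all 95 libraries asked whether the change with CPB differed from organ to organ, and 12.9% of 20321 genes passed it. ADIPOQ (edgeR adjusted p = 0.00606), PLIN1 (adjusted p = 0.00209) and LIPE (adjusted p = 0.0304) passed. For ADIPOQ all 7 CPB kidneys had 0 counts, so the kidney part of that fit sets no bound and its p adds little to the values. LEP (adjusted p = 0.111), PLIN4 (0.188), CIDEA (0.717), CIDEC (0.954) and FABP4 (0.976) did not. Without heart, the organ of the other batch, LIPE had an adjusted p = 0.0895, while ADIPOQ and PLIN1 passed at 0.00868 and 0.00359. Without control animals 1, 10 and 26, ADIPOQ had 0.316 and PLIN1 0.605, and LIPE passed at 0.0364. LIPE lost its call in 7 of 15 fits that left out 1 animal (control animal 4, 7 or 14, or CPB animal 2, 19, 21 or 25), with adjusted p up to 0.112. LEP passed without control animal 13 (adjusted p = 0.000836). With all animals, LEP had 0 counts in all 7 CPB kidneys and in 5 of 8 control kidneys. That call therefore rests on few libraries and adds little to the values. Control animals 1, 10 and 26 were picked as those with the kidneys highest in ADIPOQ. The loss of the ADIPOQ and PLIN1 calls without them follows in part from that choice, and fewer of all genes passed there. Leaving out any 1 animal kept both calls, with edgeR adjusted p up to 0.0248 for ADIPOQ and 0.0186 for PLIN1.

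Linrodostat against CPB gave 0 passing genes of the 8 in any organ by edgeR. At an unadjusted p under 0.05 there was 1, PLIN4 in kidney, and DESeq2 passed 1, ADIPOQ in kidney, where counts were 0 in the CPB arm and in 2 of 4 linrodostat libraries. Over all genes edgeR passed 0% in kidney, ileum, heart and lung and 0.772% in liver. Against control, the linrodostat arm had lower PLIN1 (−4.52 ± 1.20, edgeR adjusted p = 0.0127) and PLIN4 in kidney, 2 of 7 tested genes, where 20% of all genes passed and 8.27% passed as lower. For PLIN1 the highest linrodostat kidney and the lowest control kidney both had 0.49 CPM at the precision given and did not overlap, as was so for 9.85% of all genes. Without linrodostat animal 18 its adjusted p was 0.0507, without control animals 1, 10 and 26 it was 0.0841, and limma-voom gave 0.178. In liver PLIN1 was lower (−1.66 ± 0.36, adjusted p = 0.00391) and PLIN4 higher (1.77 ± 0.43, adjusted p = 0.00848) in linrodostat against control, where 21.8% of all genes passed, 8.88% as lower and 12.9% as higher. PLIN4 in liver lost its call without linrodostat animal 24 (adjusted p = 0.0527). In ileum, heart and lung 0 of the tested genes passed in that comparison by edgeR or by DESeq2, with 1 at an unadjusted p under 0.05 (LIPE in heart), where 0.213%, 2.04% and 2.35% of all genes passed. The comparisons of linrodostat and of CPB with control share the same 8 control animals.

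**Figure D4:**
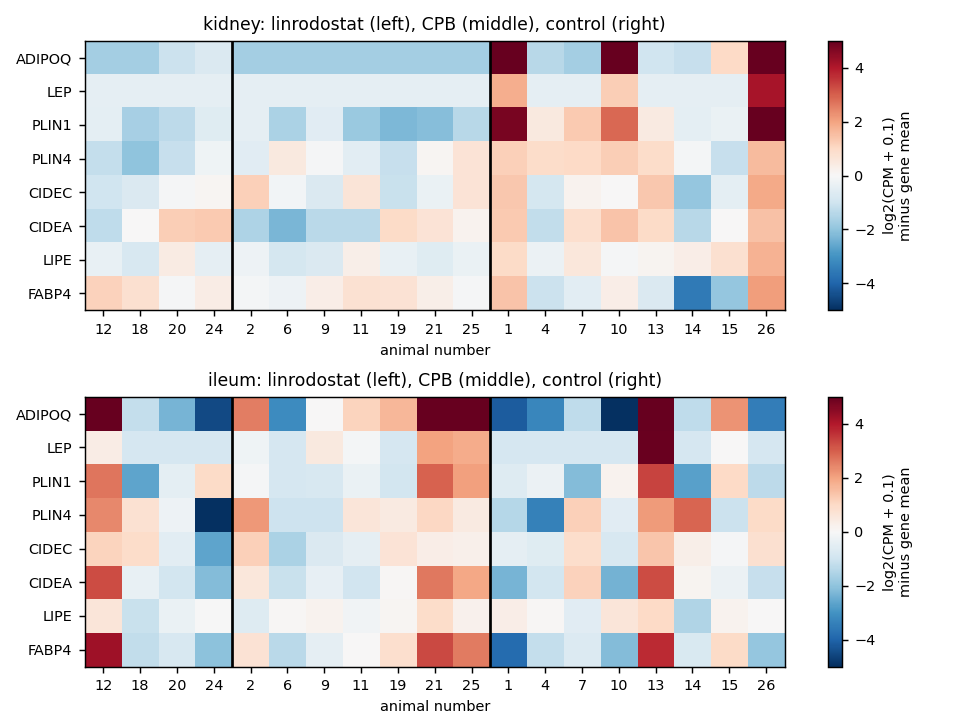
The 8 genes (rows) in each library (columns, labelled by animal number) of kidney and ileum, as log2(CPM + 0.1) minus the gene's mean over the 19 libraries, with the colour scale ending at 5 on either side. Vertical lines separate linrodostat, CPB and control animals from left to right. In kidney the columns of control animals 1 and 26 are high across rows, and in ileum those of linrodostat animal 12, CPB animals 21 and 25 and control animal 13.

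The other genes followed ADIPOQ closely in some cases and loosely in others. Over the 19 ilea, with arm means removed, log2 FABP4 had r = 0.962 (permutation p = 1e-05, adjusted p = 0.000155 over 31 relations) and rho = 0.928 with ADIPOQ. For CIDEA the values were r = 0.922 (permutation p = 1e-05, adjusted p = 0.000155) and rho = 0.93. The p of 1e-05 is the smallest that the resampling can give. Without the 2 ilea farthest from the median, r was 0.922 for FABP4 and 0.843 for CIDEA.

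LEP (r = 0.781, rho = 0.622), CIDEC (r = 0.707, rho = 0.77), PLIN1 (r = 0.66, rho = 0.374) and PLIN4 (r = 0.586, rho = 0.654) also passed by r in ileum. For PLIN1 the rank relation did not pass, and r was 0.388 without the 2 farthest ilea. LIPE did not pass (r = 0.333, rho = 0.174). In kidney 3 libraries stand apart from the rest, so r rests on few libraries there. By r 2 of 6 kidney relations passed, PLIN1 (r = 0.869, rho = 0.762) and FABP4 (r = 0.766, rho = 0.512). The rank relation of FABP4 did not pass. Without the 2 kidneys farthest from the median, r was 0.681 for PLIN1 and 0.517 for FABP4. In heart, 1 of 6 relations passed (CIDEC, r = 0.588, rho = 0.517), and in liver and lung 0 of 6 each passed by permutation of r. At an unadjusted permutation p under 0.05 there were none in liver, and in lung PLIN4 had r = −0.511 with p = 0.0255 and an adjusted p = 0.066.

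On the CPM scale, straight lines over the 19 libraries of an organ gave the slopes of the other genes on ADIPOQ in kidney and ileum, and differences between slopes were not tested. Arm means were not removed for these lines, and all kidneys with at least 10 CPM of ADIPOQ were controls. PLIN1 gained 0.266 ± 0.015 CPM per CPM of ADIPOQ in kidney and 0.255 ± 0.018 in ileum (slope ± standard error). FABP4 gained 0.254 ± 0.042 in kidney and 0.226 ± 0.016 in ileum, and LIPE 0.1 ± 0.014 in kidney and 0.105 ± 0.025 in ileum. The intercepts are the levels the line gives at 0 ADIPOQ. For LIPE they were 4.68 ± 0.42 CPM in kidney and 24.2 ± 2.14 in ileum, and for FABP4 9.76 ± 1.25 in kidney and 1.37 ± 1.34 in ileum. The FABP4 intercept in kidney mixes the arms, with 7.68 to 16 CPM in CPB and 0.7 to 39.4 CPM in control kidneys.

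CIDEC gained 0.0379 ± 0.0083 per CPM of ADIPOQ in kidney and 0.04 ± 0.014 in ileum, and PLIN4 0.271 ± 0.075 and 0.248 ± 0.12 in the same organs. CIDEA gained 0.104 ± 0.043 in kidney and 0.0386 ± 0.0019 in ileum. These lines rest on few libraries. Without the library highest in ADIPOQ the PLIN1 slope was 0.38 ± 0.0088 in kidney and 0.237 ± 0.024 in ileum, so the closeness of its slopes over all libraries rests on 1 kidney. The LEP slope dropped to 0.00705 in kidney, against 0.0172 with all libraries, and to 0.00216 in ileum, against 0.0115.

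**Figure D5:**
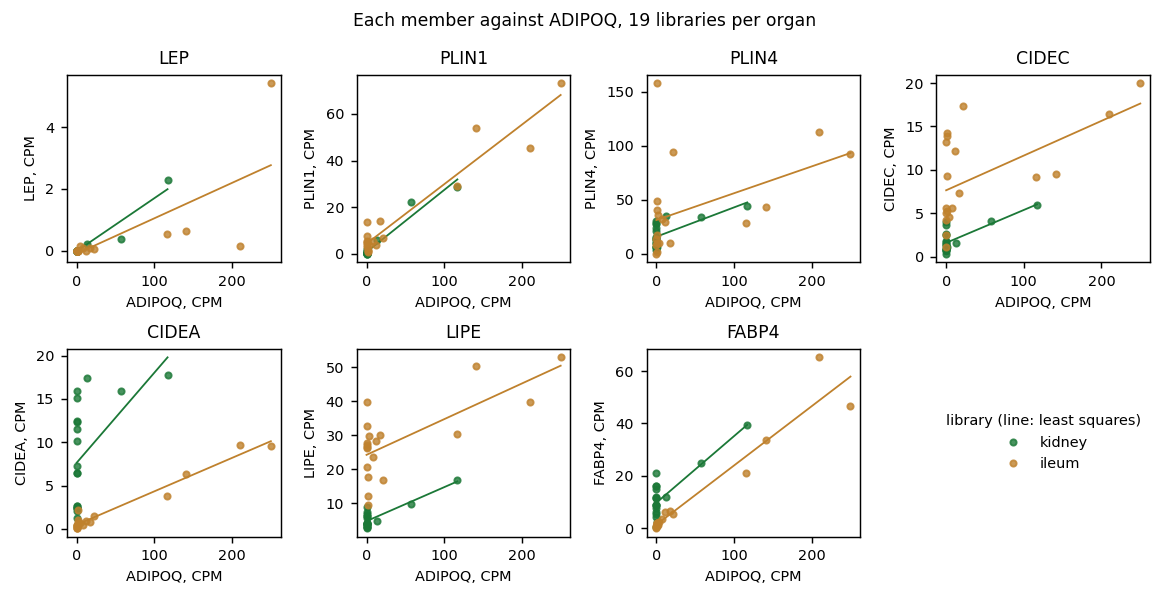
Level of each of the other 7 genes (vertical axes, CPM) against ADIPOQ (horizontal axes, CPM) in 19 kidney and 19 ileum libraries. Least-squares lines are per organ over all arms, without removal of arm means. Few libraries lie far to the right and set the lines, and the LIPE line starts from a higher level in ileum. The PLIN4 library at 158 CPM is the ileum of control animal 14, with 1.42 CPM of ADIPOQ.

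Between the organs, the order of control levels differed from gene to gene, with all libraries scaled together. FABP4 had its highest median in heart (24.3 to 191 CPM), and its heart range overlapped the highest libraries of kidney (0.531 to 31.4 CPM) and ileum (0.104 to 35.3 CPM). LIPE was highest in heart (20.3 to 88.2 CPM) and ileum (7.01 to 40 CPM), whose ranges overlapped, and lowest in liver (1.1 to 3.2 CPM), below every control kidney. In CPM without scaling between organs the median of LIPE was higher in ileum (29.1 CPM) than in heart (18.2 CPM). PLIN1 had its highest median in liver (5.13 to 19.9 CPM), and its ileum range (0.734 to 55.4 CPM) overlapped it. CIDEC led in lung (10.5 to 21.1 CPM) and CIDEA in kidney (1.82 to 14.2 CPM), each with overlap to the next organ. ADIPOQ medians were 0.634 CPM in ileum and 0.23 CPM in kidney and 0.127 CPM or lower elsewhere, with all neighbours overlapping. Only for PLIN4 in heart and LIPE in liver did neighbours in the order not overlap.

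Genes with the pattern most like ADIPOQ were ranked among 13256 genes by r of log2(CPM + 0.1) over 95 libraries with organ means removed, a description in which libraries of 1 animal are not independent. The 8 highest with a symbol outside the 8 genes were EBF2 (0.718), CA3 (0.668), MYOC (0.651), LVRN (0.645), CHRDL1 (0.6), MATN4 (0.58), GPC3 (0.578) and CNTFR (0.559). EBF2 is a transcription factor of fat cell precursors in mice, and CA3 is a carbonic anhydrase abundant in fat and muscle. The 8 genes were picked by r over these same libraries, so high r in organs where ADIPOQ varied widely follows in part from that choice. Within organs, the r of these 8 genes ran from 0.256 to 0.882 in kidney, where 3 libraries stand apart, and from 0.706 to 0.921 in ileum. It ran from −0.234 to 0.566 in heart, from −0.19 to 0.262 in liver and from −0.688 (LVRN) to 0.416 in lung. PLIN1 ranked at 0.672, FABP4 at 0.61, CIDEA at 0.585, CIDEC at 0.484, PLIN4 at 0.4 and LIPE at 0.316. LEP was too low to be ranked.

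Further lists of fat cell and lipid genes were counted in the same comparisons. Of 10 tested among 16 further fat cell genes in kidney, 2 fell and 8 did not pass, where 21.1% of all genes passed and 9.86% passed as lower. LPL, the lipase that takes up blood triglyceride, had 5.92 to 20.5 CPM in CPB and 19 to 54.6 CPM in control kidneys (−1.53 ± 0.30, edgeR adjusted p = 0.002). GPD1, which makes the glycerol backbone, was lower as well (−1.06 ± 0.26, adjusted p = 0.0076). Of 12 genes of lipolysis and lipid droplets, 3 rose and 2 fell in CPB kidneys, against the same share of all genes. PLIN2, the droplet coat protein of most other cell types, had 68 to 154 CPM in CPB and 27.9 to 58.1 CPM in control kidneys (1.57 ± 0.25, adjusted p = 0.000301), opposite in direction to PLIN1. Of 8 stromal and fibroblast genes, 2 fell (DCN and PDGFRA) and the summed level was 776 to 2060 CPM in linrodostat, 420 to 1480 in CPB and 852 to 3020 in control kidneys. The part of stroma in the lower ADIPOQ and PLIN1 was not tested.

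In liver, 3 of 12 lipolysis and droplet genes rose and 1 fell, where 15.6% of all genes passed as higher and 11.3% as lower. FITM2, which helps droplets form, had 18.7 to 66.7 CPM in CPB and 8.7 to 17.1 CPM in control livers (1.55 ± 0.25, edgeR adjusted p = 0.000455). Of 12 genes of fatty acid and triglyceride synthesis 2 fell, DGAT2 (−1.05 ± 0.33, adjusted p = 0.0231) and GPAM (−1.37 ± 0.43, adjusted p = 0.0255). ADIPOR2, a receptor for adiponectin, rose in CPB livers (0.81 ± 0.25, adjusted p = 0.0227), while ADIPOQ was at 0.171 CPM or less in every liver. In heart, 1 of 11 tested droplet genes rose and 2 fell besides LIPE, where 11.9% of all genes passed. PLIN3 had 12.2 to 21.8 CPM in CPB and 19.3 to 40.5 CPM in control hearts (−0.75 ± 0.17, adjusted p = 0.007). In ileum 0 of 15 tested further fat cell genes and 0 of 12 droplet genes passed by edgeR, as did 0% of all genes.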

How the data were processed

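Libraries of polyadenylated RNA from 95 samples were made with Tecan's Universal Plus kit and read in pairs on a NovaSeq 6000, per the labels' protocols. The authors deposited 1 table of expected counts (estimated counts per Ensembl gene), of which 92.7 to 96.6% per library are whole numbers, and these were rounded. STAR, Salmon, Trim Galore, cutadapt, bcl2fastq, MultiQC and the build Sscrofa11.1 are named by the submitters' processing notes, without versions, and the program that counted is not given in the sources used here.

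Organs were fitted one by one with edgeR 4.0.16 under R 4.3.3 (filterByExpr by arm, TMM scaling, robust glmQLFit over 19 libraries, quasi-likelihood F tests), leaving 14890 to 17869 genes. Benjamini-Hochberg adjustment ran over all genes tested, with a threshold of 0.05. The test between organs used all 95 libraries. Levels are TMM-scaled CPM with a pseudocount of 0.1 on the log2 scale. Alternatives were RLE size factors, no filter, sex as covariate, only the 2 arms compared, limma-voom (limma 3.58.1), DESeq2 1.42.0, an animal block and leaving out each animal. The code was tested on simulated data. All 8 genes are named, and the 8 genes most like ADIPOQ. Of the other lists, the passing gene with the smallest p is named for some lists and organs only. GPD1, DCN, PDGFRA, GPAM and other genes were added. Which genes of the other lists are named was picked after seeing values. The genes, lists and tests were chosen with earlier results of these data known. Animals are the replicates, no library was a copy of another, and 0 columns were left unused. The same animal number marks libraries of 1 animal in 5 organs, per the labels, so it pairs organs but not arms.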

Additional observations from a re-analysis of the deposited data

Results flagged for a closer look

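In 8 of 114 groups of an arm, organ and gene, 1 library stood far from the others on the log2 scale by Dixon's criterion, where chance gives about 1 in 20 for values that vary freely. In 6 of the 7 LEP groups all other libraries had 0 counts, so any library with a count would have stood apart and that rate does not apply to them. For LEP these were control animal 13 (5.44 CPM) and linrodostat animal 12 (0.137 CPM) in ileum, CPB animal 11 (0.114 CPM) in heart, CPB animal 9 (0.0733 CPM) and linrodostat animal 20 (0.0224 CPM) in liver, and CPB animal 19 (0.0277 CPM) and control animal 4 (0.0268 CPM) in lung. Of these, only control animal 13 in ileum was above 1 CPM. For FABP4, the heart of control animal 13 was low at 16.9 CPM, while the other control hearts had at least 50.8 CPM.

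The test of whether the CPB effect differed between the 5 organs passed ADIPOQ (edgeR adjusted p = 0.00606) and PLIN1 (edgeR adjusted p = 0.00209). It also passed LIPE (edgeR adjusted p = 0.0304, lost in 7 of 15 fits that left out 1 animal). For ADIPOQ all 7 CPB kidneys had 0 counts, so the kidney part of that fit sets no bound and its p adds little to the values. Without control animals 1, 10 and 26, picked for their kidney ADIPOQ, the edgeR adjusted p was 0.316 for ADIPOQ, 0.605 for PLIN1 and 0.0364 for LIPE.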

How the results depend on the processing

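With limma-voom the count of passing genes was 1 in kidney for CPB against control and 1 for linrodostat against control. DESeq2 passed 4 in the second and 1 (ADIPOQ) for linrodostat against CPB. That ADIPOQ call rests on 5 counts in the linrodostat arm. The share of all genes passing in kidney by limma-voom or DESeq2 is not given here, so these counts cannot be set against it. Without a low-count filter the count of passing genes was 0 in heart and 1 in liver for CPB against control, and with log2 ADIPOQ as covariate 1 in liver. The test between organs passed 3 with the animal as replicate block, as without it, and 1 without control animals 1, 10 and 26. There, all genes passing numbered 1290, against 2628 with all animals, and in kidney 2378 without those controls and 2104 with the covariate, against 3733. DESeq2 passed 1722 genes in lung for CPB against control, against 840 by edgeR, and 818 for linrodostat against control in ileum, against 38.

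Leaving out 1 animal gave 1 to 3 passing genes in kidney for linrodostat against control, 0 to 1 in heart and 1 to 3 in liver for CPB against control, and 1 to 2 in liver for linrodostat against control. The permutation difference of ADIPOQ ran from −4.38 to −2.92 in kidney, where the adjusted p was 0.00291 to 0.286 and −3.83 passed with the smaller tail doubled. In kidney it passed in the 8 of 15 fits that left out 1 control animal and in none that left out 1 CPB animal. With 1 control left out the groups are of equal size, and both forms of p are then the same. The difference ran from 2.50 to 4.14 in ileum, passing without control animal 13 (adjusted p = 0.0422). In heart it ran from −0.10 to 0.98, below 0 without CPB animal 9. FABP4 in kidney changed sign with sex as covariate (0.30), limma-voom (0.78), without control animals 1, 10 and 26 (1.54), with the ADIPOQ covariate (1.67) and over single animals left out (−0.27 to 0.50). The cause was not tested. ADIPOQ in kidney failed the filter with only 2 arms, without the 3 controls, and without control animal 1, 10, 15 or 26, so those fits gave no value. Calls of single genes that changed with a setting are given with those genes in the report. Depth limits LEP, and ADIPOQ in liver and lung.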
